A study of Homo sapiens with 6 samples.

Results

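The HOX genes are the 39 rows, of 19655 genes in the deposited count table, whose symbol is HOXA, HOXB, HOXC or HOXD followed by a number. The rule uses the name and no measured value. Total RNA was sequenced from cells that the labels call HCT116, a long-established line of human colorectal cancer, grown in DMEM medium with foetal bovine serum. The comparison is between 3 libraries of cells transfected with an antisense oligonucleotide to knock down SNORA67, a small nucleolar RNA (ASO), and 3 libraries of control cells of the same line (NC). All libraries come from this 1 line, the labels do not say how the NC cells were treated, and the oligonucleotide sequence, dose and harvest time were not given in the sources used here. SNORA67 itself was not analysed here, so the knockdown was not checked.

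HOX genes encode homeodomain transcription factors and lie side by side in 4 clusters that arose by duplication of 1 ancestral cluster. Within a cluster, genes at the 3' end (low numbers) are switched on early and towards the head of the embryo, and genes at the 5' end (high numbers) later and towards the tail, and genes of the same number in different clusters form a paralogue group. Adult cells such as fibroblasts and gut epithelium keep a HOX pattern that reflects the body position they came from, held open or shut by trithorax and Polycomb proteins.

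In the coordinates of the authors' table (hg38, 1-based), the HOXB genes span chr17:48528526-48728750, the HOXC genes chr12:53938831-54056030 and the HOXD genes chr2:176092721-176190907, and the HOXA genes lie on chromosome 7. HOXA has 11 members, HOXB 10, HOXC 9 and HOXD 9. HOXA and HOXB genes lie on the minus strand and HOXC and HOXD genes on the plus strand.

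Promoter windows of 250 bases before the annotated start were found in the RefSeq table (GRCh38.p14) for 20 of the 39 members. The windows below belong to the 4 of them that were called in ASO both in the plain test and after GC and length trends were taken out and they are shown because 2 of these genes moved up and 2 down. HOXA2 and HOXA9 were higher in ASO, and HOXC4 and HOXC5, which share 1 annotated window, were lower. In the authors' table HOXC4 starts at 54016931 but HOXC5 only at 54033050, so the window does not adjoin that HOXC5 start. Bases shortly after the RefSeq start were found in GENCODE 29 transcripts of HOXA2 and HOXA9, and in none of HOXC4 or HOXC5. Each reads 5' to 3' in the direction of the gene, and capitals mark CCAAT (or ATTGG, the same motif on the other strand), TATAAA and TGATNNAT, a site bound by HOX proteins together with PBX.
HOXA2, chr7:27102684-27102933, minus strand: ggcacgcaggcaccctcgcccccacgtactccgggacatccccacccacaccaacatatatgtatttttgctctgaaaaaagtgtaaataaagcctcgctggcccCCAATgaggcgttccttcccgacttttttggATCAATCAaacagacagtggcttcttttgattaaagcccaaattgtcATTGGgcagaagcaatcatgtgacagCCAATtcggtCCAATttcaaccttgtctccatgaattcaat
HOXA9, chr7:27165538-27165787, minus strand: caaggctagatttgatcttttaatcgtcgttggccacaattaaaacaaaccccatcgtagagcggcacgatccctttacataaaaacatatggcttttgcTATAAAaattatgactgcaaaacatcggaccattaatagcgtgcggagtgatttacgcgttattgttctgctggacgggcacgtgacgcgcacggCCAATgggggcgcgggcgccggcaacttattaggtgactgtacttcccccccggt
HOXC4 and HOXC5, chr12:54016638-54016887, plus strand: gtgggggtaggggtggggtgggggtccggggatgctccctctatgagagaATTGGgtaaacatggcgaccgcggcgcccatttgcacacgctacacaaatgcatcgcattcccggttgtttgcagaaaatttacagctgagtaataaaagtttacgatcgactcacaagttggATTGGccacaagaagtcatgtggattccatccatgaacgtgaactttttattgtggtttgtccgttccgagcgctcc

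The HOXA2 window held 4 CCAAT matches, at 145, 67, 41 and 31 bases before the start, and 1 TGATNNAT match at 114. The HOXA9 window held 1 TATAAA match at 150 and 1 CCAAT match at 55, and the shared HOXC4 and HOXC5 window 2 CCAAT matches at 200 and 77. CCAAT was found in 17 of the 20 HOX windows and in 34.7% of the 15226 windows of the table, on either strand. The window shared by HOXC4 and HOXC5 was counted for each gene. TATAAA was found in 4 HOX windows and in 9.19% of all windows, TGATNNAT in 3 and in 4.37%, and the AP-1 motif TGANTCA in no HOX window and in 5% of all. Median GC content was 59% in the HOX windows and 62.4% in all windows, and a median observed over expected CpG ratio of 0.888 against 0.742. These matches are letters in a window and were not tied to binding or to the direction in which a gene moved.

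Levels between genes are given in TPM, which here means counts per kilobase of annotated exon, scaled to 1000000 over all genes. Changes of 1 gene are given in CPM, counts per 1000000 of the library with TMM correction. The column totals ran from 49136502 to 54905215 in ASO and from 50728524 to 53715905 in NC. The most frequent count above 0 was 4, so 1 sequenced fragment was taken as about 4 counts, which could not be checked. On that reading a gene was taken as detected in a library at 12 counts, or 3 fragments. This is a mean of 0.235 CPM in ASO and 0.228 CPM in NC. Such limits cover counting error only. In bulk RNA, fewer cells expressing a gene and less RNA per cell cannot be told apart.

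The cells carried an active HOXA, HOXB and HOXC cluster and an almost silent HOXD cluster. In every library, 26 of the 39 members were detected in ASO and 25 in NC. By cluster, detection covered 9 HOXA members in ASO and 10 in NC, 8 HOXB members in ASO and 6 in NC, and 9 HOXC members in ASO and 8 in NC. HOXD summed to 29 counts over the ASO libraries and 58 over the NC libraries, most of it from HOXD8, with 8, 0 and 12 counts in ASO and 17, 20 and 13 in NC. HOXD1, HOXD3, HOXD4, HOXD9, HOXD10 and HOXD13 had no count in any of the 6 libraries, which allows up to 12 counts in each. HOXD13, HOXA13 and HOXB13 are the most 5' genes of their clusters and act in the hindgut and genital region of the embryo. HOXD11 had 8 counts in NC 1 and HOXD12 had 9 in ASO 3, with no count elsewhere.

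The HOX message of the control cells was mostly that of 5' genes. In NC, the most abundant member was HOXC10, a lumbar and hindlimb gene, at 68.2 ± 0.949 TPM (SD, n = 3), followed by HOXA11, needed for the forearm and uterus, at 46.9 ± 4.44 TPM, and HOXB7 at 38.1 ± 6.30 TPM. These 3 made up 50.2% of the summed HOX level of NC, and the first 8 made up 79.4%. HOXC9 at 21.0 TPM, HOXC13 at 20.8, HOXC5 at 15.8, HOXC6 at 15.8 and HOXC8 at 15.7 came next, and their NC ranges overlapped from each one to the following. HOXA10 at 11.5 TPM, HOXA5 at 8.67 and HOXA4 at 6.31 followed, with no overlap between these neighbours or with HOXC8. HOXA3, HOXB5, HOXB6, HOXC4 and HOXC11 lay between 5.71 and 4.43 TPM and overlapped from one to the next. All other members averaged 2.15 TPM or less in NC, with HOXB13 the highest of them. Among the first 16 members, 10 neighbouring pairs overlapped, so the order within those stretches is not resolved.

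**Figure D1:**
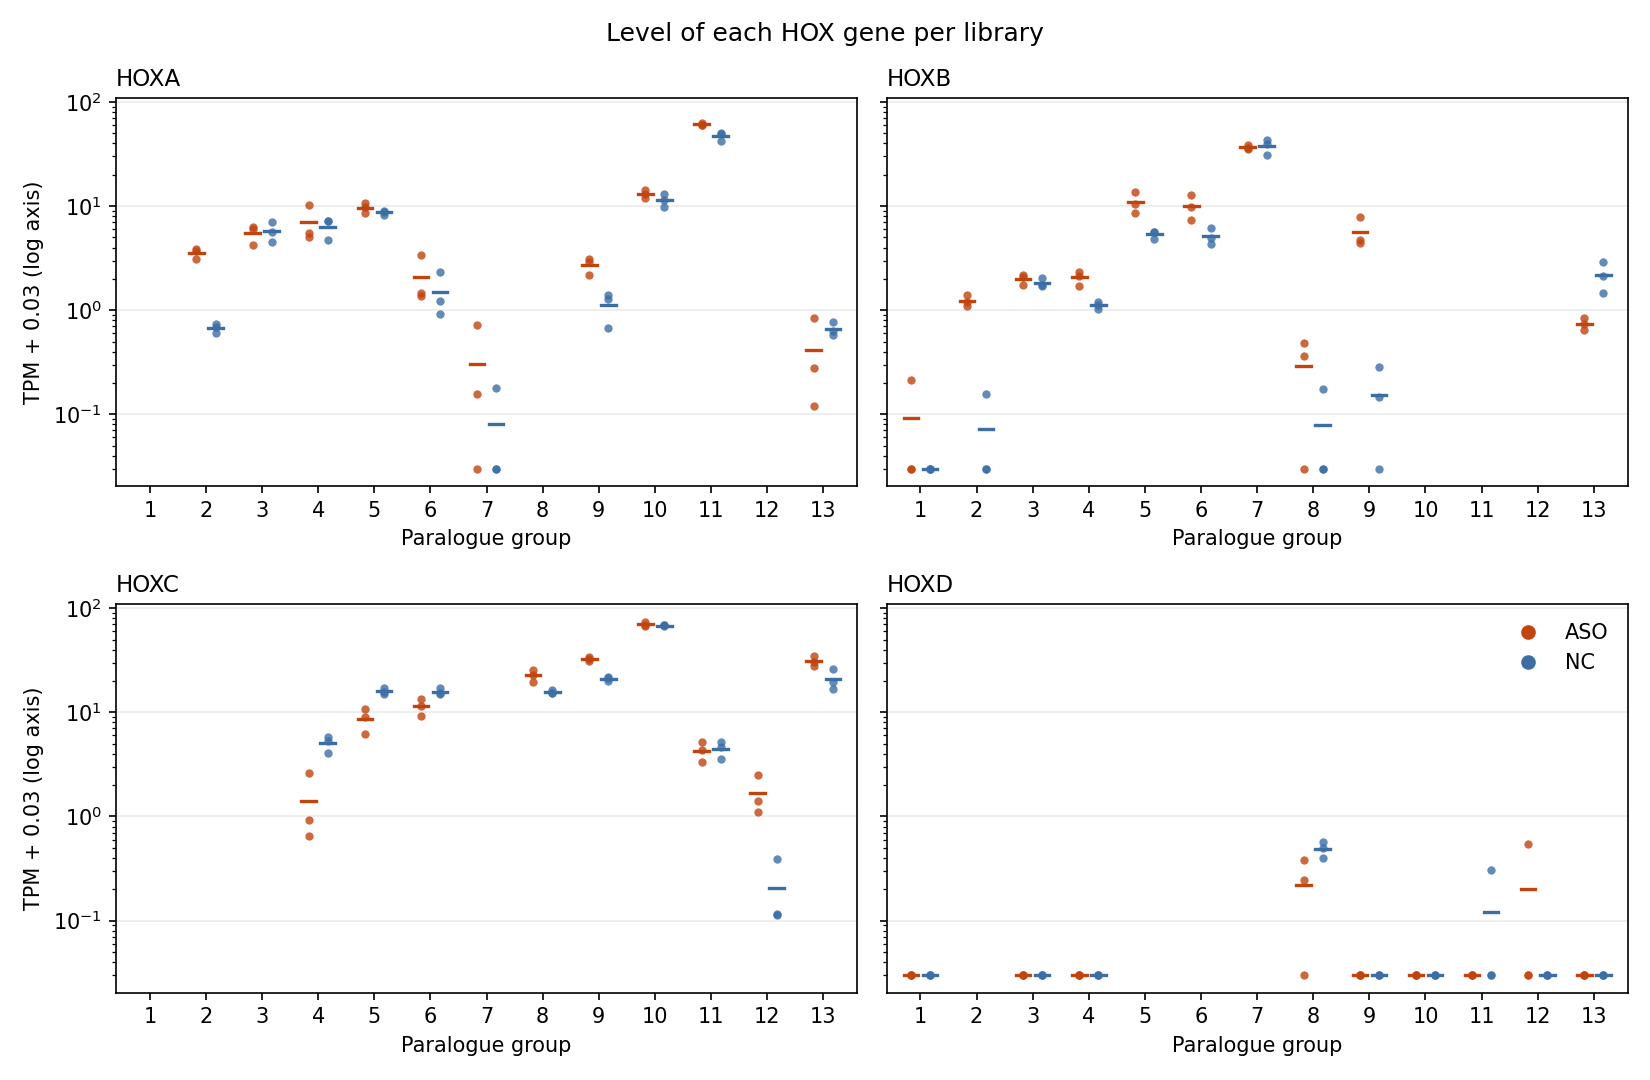
Level of each HOX gene in each library, by cluster and paralogue group, as TPM plus 0.03 on a log axis. Points are libraries, orange for ASO and blue for NC, and bars are group means. Of the 39 members, 1 is not drawn. HOXC10, HOXA11 and HOXB7 stand highest in both groups, HOXD genes lie at or near 0, and HOXB2, HOXB9 and HOXC12 are near 0 in NC and at 1 to 8 TPM in ASO.

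The sum over all HOX genes was 360 ± 6.84 TPM in ASO and 305 ± 10.7 TPM in NC (SD, n = 3 each), and the libraries of the 2 groups did not overlap. HOXC held the largest part, 184 ± 3.62 TPM in ASO and 167 ± 4.84 TPM in NC, followed by HOXA, 107 ± 4.54 TPM in ASO and 84.0 ± 6.0 TPM in NC, and HOXB, 69.6 ± 6.50 TPM in ASO and 53.9 ± 6.30 TPM in NC. As a share of the HOX total, HOXC held 51.0 ± 1.93% in ASO and 54.7 ± 0.944% in NC. Paralogue groups 9 to 13 held 62.1 ± 1.58% in ASO and 58.0 ± 1.19% in NC, groups 4 to 8 held 34.2 ± 1.49% in ASO and 39.0 ± 1.54% in NC, and groups 1 to 3 held 3.73 ± 0.141% in ASO and 3.01 ± 0.406% in NC. These sums were not tested, trends in GC content were not removed from them, and a few abundant genes dominate them. Of the abundant genes, HOXA11, HOXC8, HOXC9 and HOXC13 had higher levels in ASO, and HOXC5 and HOXC6 lower levels. HOXA11, HOXC8, HOXC9 and HOXC13 were not called once GC and length trends were removed, as given below.

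**Figure D2:**
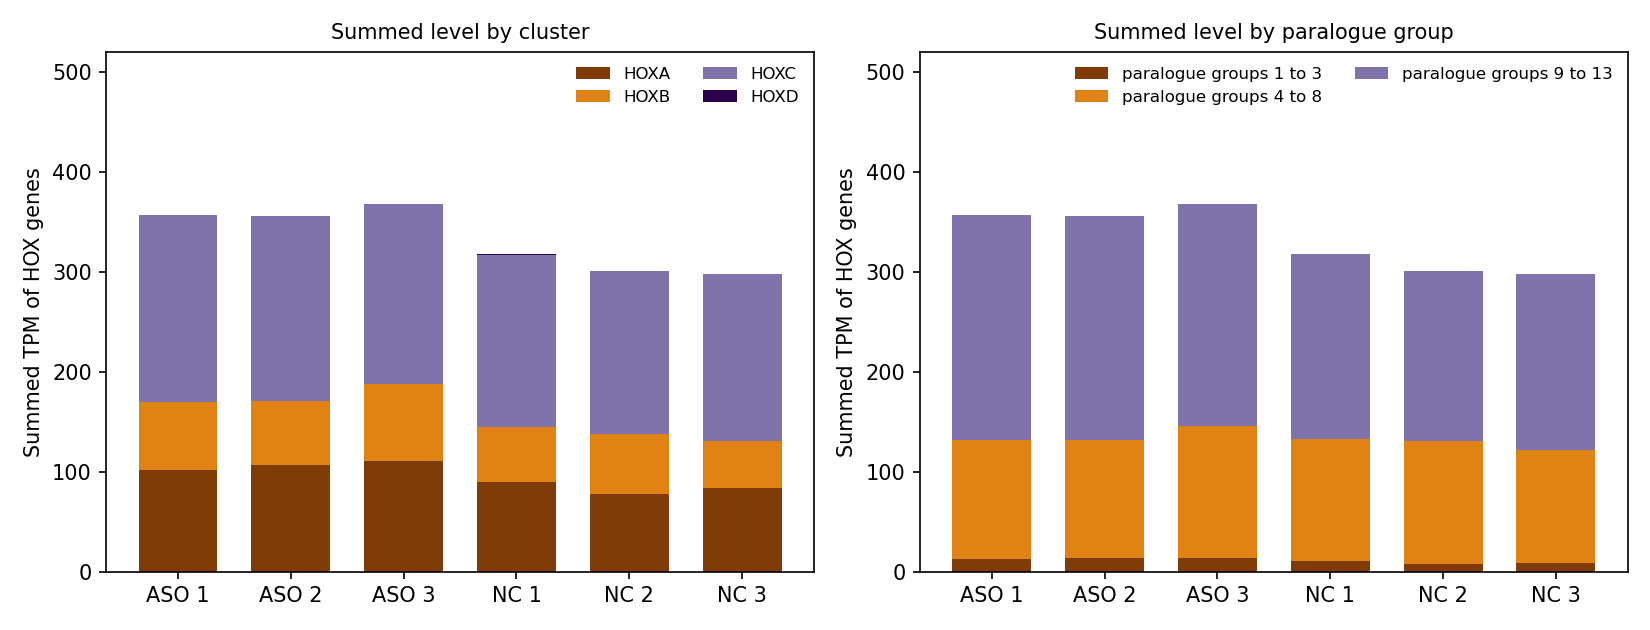
Summed TPM of the HOX genes in each library, stacked by cluster on the left and by paralogue group on the right. The 3 ASO bars stand above the 3 NC bars, HOXC is the largest block in all 6, and HOXD is too small to be seen in most. Trends in GC content were not removed from these values.

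The labelled cell type was checked against marker genes, and these did not settle it. In both groups more of the mesenchymal than of the colon epithelial markers reached 10 CPM. The identity of the cells was not tested further, and the HOX levels are those of the cells sequenced. Of 20 colon epithelial markers, 10 averaged under 1 CPM in ASO and 13 in NC, and their sum ran from 1720 to 2263 CPM in ASO and from 1989 to 2293 CPM in NC. The 3 colon markers that reached 10 CPM in NC were KRT8 and KRT18, keratins of simple epithelia, and ELF3, an epithelial transcription factor. KRT8 averaged 1166 CPM in ASO and 1360 CPM in NC, KRT18 738 CPM in ASO and 712 CPM in NC, and ELF3 53.3 CPM in ASO and 69.2 CPM in NC. EPCAM, an adhesion protein of epithelia, had 2.51, 2.78 and 3.50 CPM in ASO and 4.11, 5.6 and 3.39 CPM in NC, and CDX2, the master regulator of intestinal identity and a known activator of HOX genes, averaged 0.191 CPM in ASO and 0.311 CPM in NC. Of 22 mesenchymal markers, 13 reached 10 CPM in each group, with a sum of 4754 to 5559 CPM in ASO and 4352 to 4821 CPM in NC. In this list 2 averaged under 1 CPM in ASO and 4 in NC. COL5A1 averaged 1280 CPM in ASO and 612 CPM in NC, and COL1A1 374 CPM in ASO and 160 CPM in NC. S100A4 averaged 520 CPM in ASO and 773 CPM in NC, and PDGFRB 41.0 CPM in ASO and 101 CPM in NC. LGALS4, an enterocyte lectin, had 1021, 752 and 1004 counts in ASO and 0, 0 and 1 in NC, and VIL1, the microvillus protein villin, 585, 56 and 731 counts in ASO and 0, 11 and 0 in NC. ESRP1 and TFF3 had no count in any library. The immune marker PTPRC had no count in any library, but 10 immune markers summed to 19.3 to 23.5 CPM in ASO and 3.03 to 4.26 CPM in NC, 8 endothelial markers to 15.6 to 20.1 CPM in ASO and 9.59 to 10.8 CPM in NC, and 7 muscle markers to 25.6 to 29.5 CPM in ASO and 15.2 to 17.2 CPM in NC. In the muscle list DES went against the sum, at 6.47 CPM in ASO and 10.5 CPM in NC. For 8 neural markers the sums overlapped, at 33.7 to 42.1 CPM in ASO and 34.0 to 36.9 CPM in NC. A count was seen for 15452 to 15665 genes in ASO and 13934 to 13995 genes in NC. The part of these differences in the HOX values was not tested.

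Of the 39 members, 28 passed the filter on low counts and were tested. In ASO, 12 of them were higher and 3 lower, and 13 were not called, at an adjusted p under 0.05 by edgeR's quasi-likelihood test. That is 53.6% called, against 46% of the 14062 genes tested, with 42.9% higher against 26.8%, and 10.7% lower against 19.1%. Groups did not overlap for 17 members, 60.7% of those tested against 57.6% of all genes. The median log2 fold change was 0.19 for the HOX members and 0.01 for all genes. HOXB2, HOXB9 and HOXC12, all among the 12, passed the filter only through their ASO libraries, so their calls are no support. They are described below by their counts and levels and by ratios of summed fragments, none of which is a test. HOXB2 and HOXB9 reached the detection limit in no NC library and HOXC12 in NC 3 only. Without these 3, 9 of 25 tested members were higher and 3 lower, or 36% higher and 12% lower, 48% called in all, with a median of 0.14. The shares of all genes, here and below, still include genes that passed the filter through ASO only, so the 2 are not on like sets. HOXA13 and HOXD8, neither of them called, passed only through NC. Leaving out 1 library at a time gave 6 to 10 higher and 1 to 4 lower members, with 7 higher without ASO 1, 6 higher without NC 2 and 1 lower without NC 3. HOXB2, HOXB9 and HOXC12 were among the higher members each time, so these numbers lean on them. The 11 untested members are 8 of HOXD with HOXA7, HOXB1 and HOXB8, and none had more than 21 counts in a library.

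HOX genes are GC-rich, with a median exon GC content of 54.4% over the tested members against 49.8% over all tested genes. With trends in GC content and exon length fitted in each library and removed (the GC and length step), 6 members were higher and 5 lower in ASO, against a background of 25% and 33.9% of genes, and the median was -0.08 against -0.11 for all genes. HOXA2, HOXA9 and HOXB5 were called higher with and without this step, and HOXB13, HOXC4 and HOXC5 were called lower. HOXB2, HOXB9 and HOXC12 were also called higher both times, but they passed the filter only through ASO, so this is no support. Leaving HOXB2, HOXB9 and HOXC12 aside, 3 members were higher and 5 lower after the step. The other 6 of the 12 higher calls (HOXA11, HOXB4, HOXB6, HOXC8, HOXC9 and HOXC13) were lost with it.

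HOXB9, a gene of the thoracic body wall, had 172, 143 and 265 counts in ASO and 9, 0 and 4 counts in NC, or 3.20, 2.86 and 5.30 CPM in ASO and 0.170, 0 and 0.0792 CPM in NC. Each ASO library was above each NC library, and no NC library reached the detection limit. The ratio of summed fragments, ASO over NC, was 49.7 with an exact 95% interval of 16.7 to 244 that covers counting error only. Such an interval leaves out the spread between libraries and is not a test of the groups. In the order of levels HOXB9 stood at rank 14 of the 39 in ASO and at rank 27 in NC. Its neighbour on the 3' side, HOXB8, had 13, 0 and 9 counts in ASO and 0, 0 and 4 in NC and was not tested, and the next, HOXB7, had 14.6, 15 and 14.3 CPM in ASO and 15.8, 17.5 and 12.7 CPM in NC (log2 fold change -0.07 ± 0.16 SE, adjusted p = 0.753).

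At the 3' end of the same cluster, HOXB2, a hindbrain gene, had 45, 32 and 36 counts in ASO and 0, 0 and 4 in NC. Both groups were low, with the ASO libraries all past the detection limit and the NC libraries all under it. The ratio of fragments was 28.8 with an exact 95% interval of 4.76 to 1177, which again covers counting error only. With counts divided by 4, HOXB2 fell under the filter and was not tested. HOXB1, a hindbrain gene next to it, had 6 counts in ASO 3 and none elsewhere.

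HOXB4, HOXB5 and HOXB6, in the middle of the cluster, were called higher. HOXB5, which acts in gut mesenchyme and enteric neurons, had 5.55, 4.44 and 7.32 CPM in ASO and 3.0, 3.03 and 2.61 CPM in NC, a log2 fold change of 1.0 ± 0.24 (SE) and an adjusted p of 0.0113. HOXB6 had 6.63, 4.86 and 8.70 CPM in ASO and 2.92, 3.34 and 4.22 CPM in NC, 1.93-fold higher (adjusted p = 0.0219). HOXB4, known for expanding blood stem cells, had 2.29, 1.6 and 2.08 CPM in ASO and 1.08, 0.973 and 1.17 CPM in NC, 1.85-fold higher (adjusted p = 0.046). The ASO and NC libraries did not overlap for any of the 3. After the GC and length step HOXB5 was still called (adjusted p = 0.0374), while HOXB6 (0.0618) and HOXB4 (0.103) were not. HOXB6 was also lost without ASO 3 (0.0844), NC 1 (0.0749) or NC 2 (0.0607), and HOXB4 without any 1 library other than ASO 2 (0.0722 to 0.14), with DESeq2 (0.0548) and with no filter on low counts (0.0568). HOXB3 had 4.02, 3.22 and 4.24 CPM in ASO and 3.34, 3.25 and 4.02 CPM in NC, with overlapping groups (adjusted p = 0.696). HOXB3 shares 433 exon bases with HOXB6, which is 16.6% of HOXB6, and 159 with HOXB4, so counts in this stretch could be split differently.

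HOXB13, the prostate and distal gut gene that lies apart from the rest of its cluster at the 5' end, fell. It had 0.745, 0.540 and 0.640 CPM in ASO and 1.92, 2.63 and 1.33 CPM in NC, 3.05-fold lower in ASO (log2 fold change -1.61 ± 0.39 SE, adjusted p = 0.0118). All ASO libraries were under all NC libraries. The call was lost without NC 2 (adjusted p = 0.0508). In all, 5 of the 8 tested HOXB members were higher, 62.5% against 26.8% of all genes, and 1 was lower, with a median log2 fold change of 0.92. These 5 include HOXB2 and HOXB9, and without them 3 of 6 were higher, with a median of 0.50. Once GC and length trends were out, 3 of the 8 were higher and 1 lower, with a median of 0.59. Without HOXB2 and HOXB9 this left 1 of 6 higher and 1 lower. Without ASO 3, NC 1 or NC 2, 3 HOXB members were higher, HOXB2 and HOXB9 among them.

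**Figure D3:**
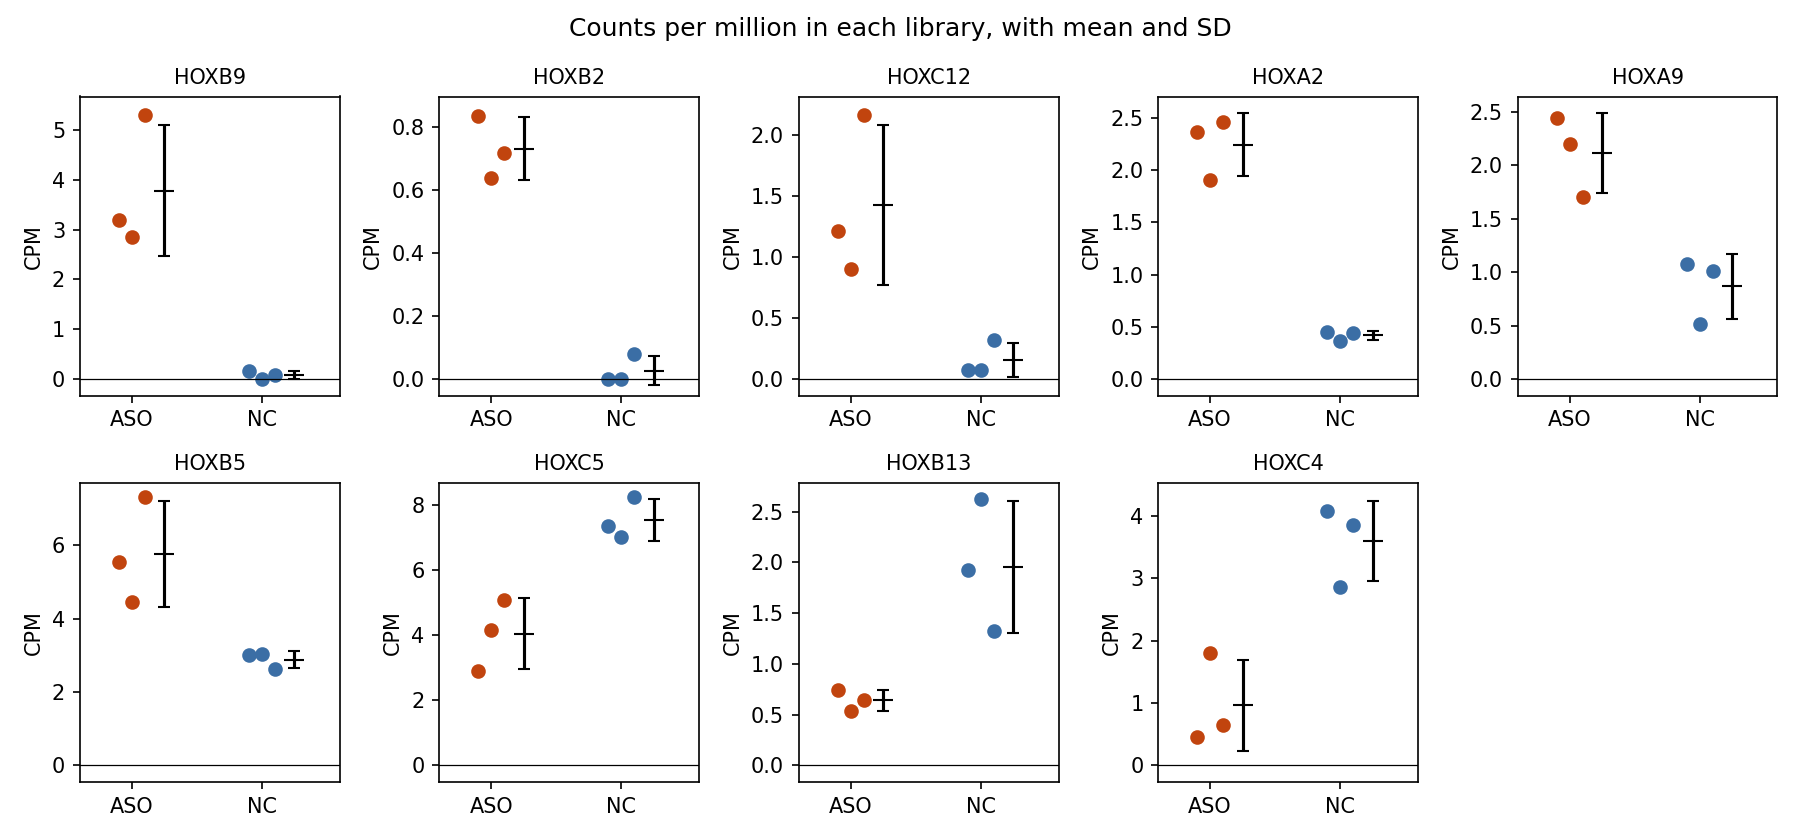
CPM of the 9 HOX genes called in the same direction with and without removal of GC and length trends, in each library, with mean and SD beside the points. The 6 genes higher in ASO come first and the 3 genes lower in ASO last, and no ASO point overlaps an NC point in any panel. HOXB2, HOXB9 and HOXC12 passed the filter on low counts only through ASO.

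In HOXA, 3 of the 10 tested members were higher, 30% against 26.8% of all genes, and 7 were not called, with 1 higher without ASO 1 or without NC 2. HOXA2, which sets the identity of the second branchial arch in the mouse, had 2.36, 1.90 and 2.46 CPM in ASO and 0.453, 0.367 and 0.436 CPM in NC. All ASO libraries were higher than all NC libraries, by 5.33-fold (log2 fold change 2.41 ± 0.34 SE, adjusted p = 0.00105). The call held without each library in turn, with adjusted p between 0.00237 and 0.00771. HOXA2 rose to rank 17 of the HOX genes in ASO, against rank 23 in NC.

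HOXA3 to HOXA5, on the 5' side of HOXA2, did not pass the test. HOXA3, needed for the thymus and parathyroid, had 4.75, 6.88 and 6.78 CPM in ASO and 7.87, 5.12 and 6.42 CPM in NC (adjusted p = 0.816). HOXA4 had 2.31, 2.44 and 4.72 CPM in ASO and 3.25, 3.29 and 2.16 CPM in NC (adjusted p = 0.796), and HOXA5, a lung gene, had 4.36, 3.70 and 4.78 CPM in ASO and 3.94, 4.02 and 3.72 CPM in NC (adjusted p = 0.607). The groups overlapped for all 3. HOXA6, which shares 39.3% of its exon bases with the antisense gene HOXA-AS3, had 26, 22 and 57 counts in ASO and 16, 22 and 40 in NC (adjusted p = 0.565).

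At the 5' side, HOXA9, a leukaemia-associated partner of MEIS1, had 2.44, 2.20 and 1.70 CPM in ASO and 1.08, 0.514 and 1.01 CPM in NC, 2.44-fold higher with groups that did not overlap (log2 fold change 1.29 ± 0.39 SE, adjusted p = 0.0274). Its call was lost without ASO 1 (0.0829), ASO 2 (0.0562) or NC 2 (0.0574). HOXA11 had 36.8, 36.9 and 36.6 CPM in ASO and 29.5, 25.3 and 30.6 CPM in NC, 1.29-fold higher (adjusted p = 0.0335). Its call was lost without any 1 library other than ASO 2 (0.0513 to 0.0902), and after the GC and length step its log2 fold change was 0.01 (adjusted p = 0.945). HOXA11 shares 31.1% of its exon bases with HOXA11-AS on the other strand, and without a stated strand setting their reads cannot be told apart. HOXA10, a uterine gene, had 11.6, 13.4 and 12.8 CPM in ASO and 12.7, 11.2 and 9.72 CPM in NC (adjusted p = 0.427). HOXA13 had 58, 16 and 6 counts in ASO and 42, 40 and 50 in NC, a wide spread in ASO only (adjusted p = 0.453).

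In HOXC, the 2 genes nearest the 3' end were lower in ASO and 4 of the 6 genes numbered 8 to 13 were higher. Those 4 include HOXC12, which passed the filter only through ASO, and the others were not called after the GC and length step. HOXC4, a cervical gene, had 0.447, 1.80 and 0.640 CPM in ASO and 4.08, 2.87 and 3.86 CPM in NC, 3.74-fold lower in ASO (log2 fold change -1.90 ± 0.51 SE, adjusted p = 0.0174). HOXC5 had 2.90, 4.16 and 5.06 CPM in ASO and 7.34, 7.02 and 8.24 CPM in NC, 1.86-fold lower in ASO (adjusted p = 0.0167). Neither gene's groups overlapped. The HOXC4 call was lost without ASO 3 (0.065), NC 1 (0.0554) or NC 3 (0.0513), and the HOXC5 call without NC 3 (0.0543). The HOXC4 log2 fold change was -2.73 without ASO 2 and -1.56 without ASO 1, so its size depends on single libraries.

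HOXC6, the next gene, had 12.5, 8.22 and 10.7 CPM in ASO and 15.8, 14.2 and 14.2 CPM in NC. Its groups did not overlap, but its log2 fold change of -0.49 ± 0.18 (SE) did not pass the test (adjusted p = 0.0605). It passed after the GC and length step (log2 fold change -0.74, adjusted p = 0.0038), with library totals only (0.0477), with limma-voom (0.047), with a replicate block (0.0319) and without ASO 1 (0.0324). HOXC4 and HOXC6 share 484 exon bases, 17.8% of HOXC4 and 13.7% of HOXC6, and each shares bases with a HOXC5 transcript, so the split of counts among these 3 genes is uncertain.

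HOXC8, HOXC9 and HOXC13 were called higher. HOXC9, a thoracic motor neuron gene, had 14.4, 13.3 and 14.9 CPM in ASO and 8.76, 9.61 and 9.47 CPM in NC, 1.53-fold higher (adjusted p = 0.00975). HOXC8 had 11.4, 12.3 and 9.68 CPM in ASO and 7.62, 7.66 and 8.18 CPM in NC, 1.43-fold higher (adjusted p = 0.0334). HOXC13, a hair and nail gene, had 22.2, 17 and 19.2 CPM in ASO and 16.5, 12.3 and 10.9 CPM in NC, 1.47-fold higher (adjusted p = 0.0465). The groups did not overlap for any of the 3, and after the GC and length step none was called, with log2 fold changes of 0.22 for HOXC9, 0.24 for HOXC8 and 0.12 for HOXC13. HOXC9 was called without each library in turn, HOXC8 only without ASO 3, and HOXC13 only without ASO 2 or NC 1. The HOXC13 call was also lost with library totals only (0.0529) and with upper-quartile scaling (0.0513).

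HOXC12 had 65, 45 and 108 counts in ASO and 4, 4 and 16 in NC, or 1.21, 0.900 and 2.16 CPM in ASO and 0.0755, 0.0735 and 0.317 CPM in NC. Every ASO library was above every NC library. The ratio of fragments was 9.25 with an exact 95% interval of 3.98 to 26.3, which again covers counting error only. HOXC10, the most abundant HOX gene, had 42.5, 43.8 and 40.9 CPM in ASO and 42.0, 41.0 and 42.6 CPM in NC, a log2 fold change of 0.02 ± 0.10 SE (adjusted p = 0.897). After the GC and length step it was lower in ASO, at -0.30 (adjusted p = 0.0124). HOXC11 had 4.39, 3.62 and 2.84 CPM in ASO and 3.02, 3.97 and 4.44 CPM in NC (adjusted p = 0.838). In all, 4 of 9 HOXC members were higher and 2 lower, with a median of 0.02, or 44.4% and 22.2% against 26.8% and 19.1% of all genes. Without HOXC12 3 of 8 were higher. After the GC and length step 1 of the 9, HOXC12, was higher and 4 were lower, with a median of -0.30. Without ASO 1, NC 2 or NC 3 only 2 were higher, HOXC12 among them, and without ASO 3 or NC 1 only 1 was lower. Without NC 3 edgeR called no HOXC member lower.

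**Figure D4:**
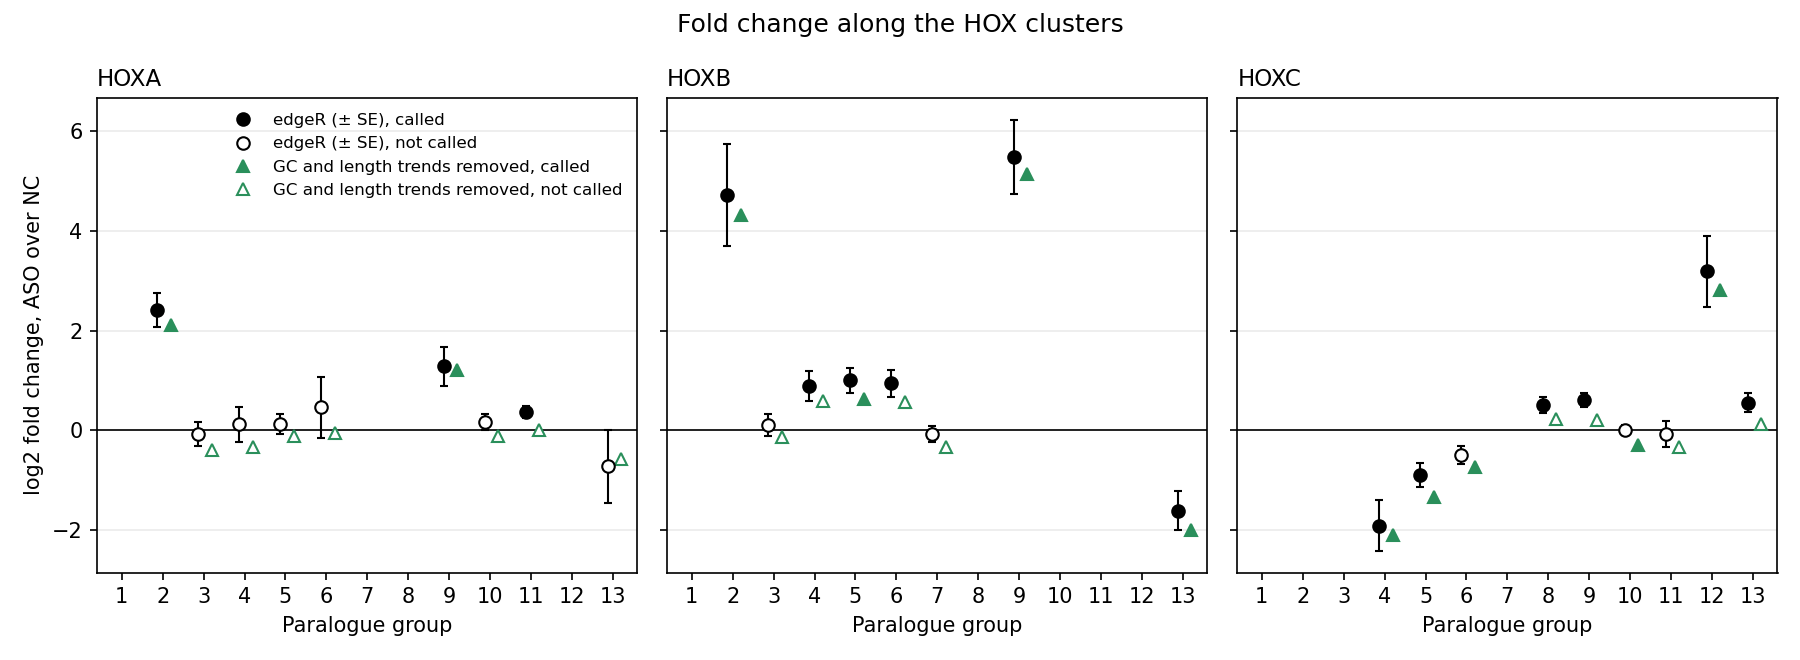
Log2 fold change, ASO over NC, of the tested members of HOXA, HOXB and HOXC by paralogue group. Of the tested members, 1 is not drawn. Circles are the edgeR values with their SE, triangles are values after GC and length trends were removed, and filled symbols passed an adjusted p of 0.05. HOXB9, HOXB2 and HOXC12, which passed the filter on low counts only through ASO, lie highest, HOXB13 and HOXC4 lie lowest, at -1.61 and -1.90, and the triangles lie below most circles.

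By paralogue group, 2 of 5 tested members of groups 1 to 3 were higher, with a median of 0.21, or 1 of 4 without HOXB2. In groups 4 to 8, 4 of 12 were higher and 2 lower, with a median of 0.13, or 33.3% and 16.7%, near the 26.8% and 19.1% of all genes. In groups 9 to 13, 6 of 11 were higher and 1 lower, with a median of 0.37, or 54.5% and 9.09%. Without HOXB9 and HOXC12, 4 of 9 were higher, or 44.4%. After the GC and length step these counts were 2 higher, then 1 higher and 3 lower, then 3 higher and 2 lower. Without HOXB2, HOXB9 and HOXC12 they were 1 higher, then 1 higher and 3 lower, then 1 higher and 2 lower. Leaving out 1 library gave 1 to 3 higher in groups 4 to 8 and 3 to 5 higher in groups 9 to 13, HOXB9 and HOXC12 included. Paralogues did not move as one. HOXB4 was called higher and HOXC4 lower, HOXB5 higher and HOXC5 lower, while HOXA4 and HOXA5 were not called. In group 9, HOXA9 and HOXC9 were called higher, HOXC9 not after the GC and length step, beside the HOXB9 counts given above.

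HOX proteins bind DNA with PBX, MEIS and PKNOX proteins, the TALE cofactors. Over all genes tested, 26.8% were higher and 19.1% lower, and 25% and 33.9% after the GC and length step, and the lists that follow are set beside these shares. Of 8 tested cofactors 1 was higher (12.5%) and none lower, and 2 were higher and 1 lower after the GC and length step (25% and 12.5%). PBX4 averaged 4.44 ± 0.785 CPM in ASO and 2.02 ± 0.470 CPM in NC (SD, n = 3 each; 2.19-fold, adjusted p = 0.0102). MEIS1 averaged 17.7 ± 3.05 CPM in ASO and 16.7 ± 0.859 CPM in NC (adjusted p = 0.693).

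Retinoic acid, made from vitamin A, switches on 3' HOX genes through its nuclear receptors. Of 11 tested pathway genes 5 were higher and 1 was lower, with a median of 0.57, or 45.5% and 9.09% against 26.8% and 19.1% of all genes. Those 11 split into 4 higher and 4 lower after the GC and length step (36.4% each), the share lower near the 33.9% of all genes. RARA, a retinoic acid receptor, averaged 82.1 ± 21.2 CPM in ASO and 24.8 ± 2.79 CPM in NC, 3.30-fold higher (adjusted p = 0.0004), with ASO libraries at 102, 59.7 and 84.7 CPM and NC libraries at 25.8, 21.7 and 27.0 CPM. CYP26B1, which breaks retinoic acid down, averaged 17.8 ± 2.88 CPM in ASO and 9.33 ± 0.631 CPM in NC, 1.91-fold higher (adjusted p = 0.00333). CYP26A1, a related enzyme that retinoic acid induces, had 25, 14 and 48 counts in ASO and none in NC, and is named after its values were seen. It passed the filter on low counts only through ASO, so its own result is no support. The 11 tested genes and their median include CYP26A1, and the list was not read without it. RXRA, the partner receptor, averaged 39.7 ± 2.69 CPM in ASO and 50.1 ± 2.41 CPM in NC (log2 fold change -0.33, adjusted p = 0.0321), a call lost without ASO 3 (0.101), NC 1 (0.112) or NC 3 (0.0652).

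Polycomb proteins keep HOX genes shut. Of 31 tested Polycomb genes 8 were higher and 5 lower, with a median of 0.12, and 3 were lower without ASO 1, NC 1 or NC 2. These shares, 25.8% and 16.1%, are near the 26.8% and 19.1% of all genes. After the GC and length step 13 were higher (41.9%, against 25% of all genes) and 10 lower (32.3%, against 33.9%). PHC2, a subunit of the PRC1 complex, averaged 248 ± 24.9 CPM in ASO and 82.0 ± 3.41 CPM in NC, 3.03-fold higher (adjusted p = 1.77e-05). JARID2, an accessory subunit of PRC2, averaged 118 ± 2.15 CPM in ASO and 44.8 ± 1.30 CPM in NC, 2.64-fold higher (adjusted p = 1.54e-05). PHF19, which guides PRC2, averaged 75.4 ± 7.77 CPM in ASO and 133 ± 9.07 CPM in NC, and EZH1, one of its methyltransferases, 21.6 ± 1.85 CPM in ASO and 37.9 ± 4.31 CPM in NC, 1.77-fold and 1.75-fold lower in ASO. EZH2, the main PRC2 methyltransferase, averaged 96.0 ± 12.1 CPM in ASO and 95.4 ± 2.80 CPM in NC (adjusted p = 0.955), and was called higher after the GC and length step (0.0428).

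Trithorax and MLL proteins keep HOX genes open. Of 23 tested genes 8 were higher and 4 lower, with a median of 0.26, or 34.8% and 17.4% against 26.8% and 19.1% of all genes. Taking out GC and length trends gave 6 higher (26.1%) and 8 lower (34.8%), near the 25% and 33.9% of all genes. KDM6B, a demethylase that removes the Polycomb mark and acts at HOX genes, had 177, 143 and 174 CPM in ASO and 17.6, 16.3 and 19.3 CPM in NC. All ASO libraries were higher than all NC libraries, by 9.29-fold (log2 fold change 3.22 ± 0.13 SE, adjusted p = 1.98e-06). KMT2C, a histone methyltransferase, was 1.58-fold higher, and KMT2A, the MLL protein that maintains HOX expression, averaged 103 ± 21.3 CPM in ASO and 96.1 ± 7.80 CPM in NC (adjusted p = 0.607). PSIP1, which tethers MLL to chromatin, averaged 20.8 ± 3.64 CPM in ASO and 54.8 ± 7.09 CPM in NC, 2.64-fold lower in ASO, and MLLT3 was 2.20-fold lower.

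CTCF and cohesin form the chromatin loops that insulate parts of a HOX cluster. Of 8 tested genes 4 were lower and 4 were not called, with a median of -0.50, and the same numbers were found after the GC and length step. That is 50% lower, against 19.1% of all genes, and 33.9% after the step. SMC3, a core cohesin subunit, averaged 25.9 ± 7.24 CPM in ASO and 75.2 ± 12.8 CPM in NC, 2.91-fold lower in ASO (adjusted p = 0.000992). RAD21, another core subunit, averaged 99.3 ± 23.5 CPM in ASO and 175 ± 24.2 CPM in NC, 1.77-fold lower in ASO (adjusted p = 0.00688).

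**Figure D5:**
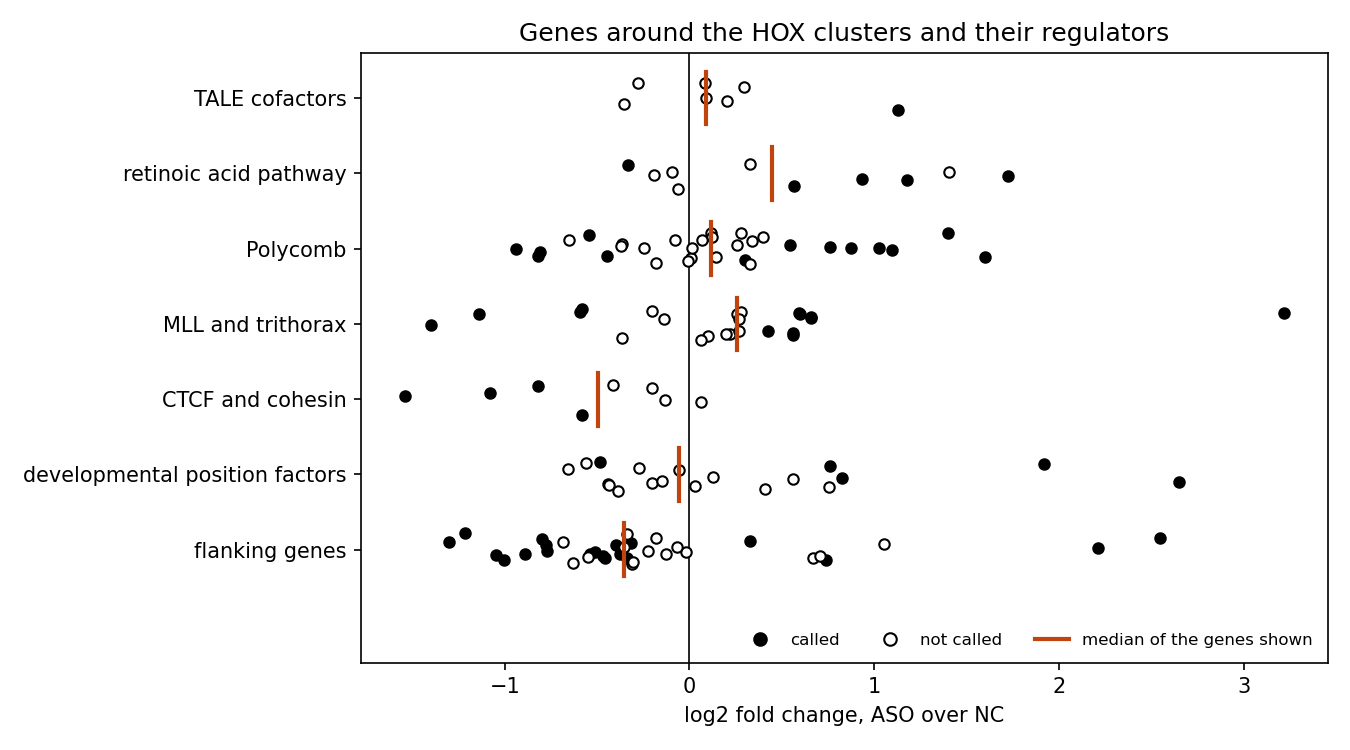
Log2 fold change, ASO over NC, of tested genes in lists of HOX cofactors, regulators, other positional factors and the genes flanking the clusters. Each circle is a gene, filled where it passed an adjusted p of 0.05, and orange bars are medians of the genes shown. CYP26A1, with no count in NC, and 1 TALE cofactor are left out, KDM6B is the point farthest to the right, and most filled flanking genes lie left of 0.

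Other factors that mark body position were also read. Of 38 such genes 19 were tested, 4 were higher and 1 lower, and 13 had no count in any library. The shares, 21.1% and 5.26%, stand against 26.8% and 19.1% of all genes. With GC and length trends out, 2 were higher and 6 lower (10.5% and 31.6%, against 25% and 33.9% of all genes), with a median of -0.35. GATA6, a gut and heart factor, averaged 29.03 ± 3.64 CPM in ASO and 4.62 ± 0.0923 CPM in NC, 6.29-fold higher (adjusted p = 1.24e-05), and FOXD1, a kidney stroma and fibroblast factor, 45.7 ± 6.48 CPM in ASO and 12.1 ± 1.89 CPM in NC, 3.78-fold higher (adjusted p = 0.000104). TBX18 averaged 25.5 ± 1.28 CPM in ASO and 35.6 ± 1.39 CPM in NC (log2 fold change -0.49, adjusted p = 0.00837) and was not called after the GC and length step (0.0644). PITX1, a hindlimb factor named after its values were seen, had 126, 89.7 and 118 CPM in ASO and 136, 105 and 142 CPM in NC (adjusted p = 0.339). TBX5, a forelimb factor also named after its values were seen, had no count in any library.

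The genes that flank the clusters, the 5 nearest of the table on each side of each, were set beside the members. Of 40 such genes 35 were tested, 4 were higher and 16 lower, with a median of -0.36, or 11.4% and 45.7% against 26.8% and 19.1% of all genes. With the GC and length step 3 were higher and 18 lower (8.57% and 51.4%, against 25% and 33.9% of all genes). The number lower was 10 without ASO 3 and 9 without NC 1 or NC 2. Beside HOXA, CREB5 averaged 14.4 ± 0.537 CPM in ASO and 3.12 ± 0.405 CPM in NC, 4.62-fold higher, and JAZF1, which lies nearer to the cluster, 6.02 ± 0.152 CPM in ASO and 12.4 ± 0.735 CPM in NC, 2.06-fold lower. Beside HOXB, UBE2Z was 1.25-fold higher and CBX1 2.33-fold lower, the second not without ASO 1 (0.076) or NC 2 (0.075), and beside HOXC, COPZ1 was 1.30-fold lower. Beside HOXD, ATP5MC3 was 1.45-fold lower and LNPK 1.70-fold lower. EVX1 and EVX2, homeobox genes at the 5' edges of HOXA and HOXD, had no count in any library. Within the clusters lie 4 other genes of the table, PRAC1 and PRAC2 beside HOXB13 among them, and none had enough counts to be tested.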

How the data were processed

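The authors deposited 1 table of estimated counts per gene for 6 RNA-seq libraries, not scaled to depth, with gene coordinates. The build hg38 and the programs StringTie, STAR, FastQC and DESeq2 appear in the submitters' processing notes, and the annotation release and strand setting were not given in the sources used here. The most frequent count above 0 was 4 in every library, so 1 fragment was taken as 4 counts, or 12.3 to 13.7 M fragments per library (M, 1000000).

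The deposited counts, already whole, were tested with edgeR 4.0.16 (R 4.3.3): filterByExpr (min.count 10, min.total.count 15), TMM scaling, a robust quasi-likelihood fit of ASO against NC without a replicate block, and Benjamini-Hochberg adjustment over 14062 genes. Genes with an adjusted p under 0.05 were called higher or lower. The SE is the absolute log2 fold change divided by the square root of the F statistic. The fits were tested on simulated data.

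TPM used the union of exons of GENCODE 29, to which 18827 genes matched by symbol and 394 by an older name, while 434 had no length and stayed out. GC content and length trends were removed by loess offsets per library over 13913 genes. GENCODE 29 placed both ends of 28 HOX members within 500 bases of the deposited coordinates. By that annotation, 9 members share exon bases with another annotated gene whose name is in the table, and 19 with a gene on the opposite strand. Among the 9, HOXC5 does so only with another entry of its own name.

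Separate cultures are not stated for the replicates, and p-values then reflect only how much these libraries differ, which may be technical. Members and lists were chosen with earlier results of these data known. All 39 members enter the counts, with values in every library for the 23 at a mean of 1 CPM or more in either group. Up to 4 called genes were named per list (in each direction the 2 with the smallest p), at most 2 per cluster among flanking genes, and CDX2, MEIS1, EZH2 and KMT2A throughout. Members under 1 CPM with values given, KRT8, KRT18, ELF3, EPCAM, ESRP1, TFF3, PTPRC, CYP26A1, PITX1, TBX5, EVX1, EVX2, PRAC1 and PRAC2 were named after their values were seen. Alternatives were other scalings, filters and tools (DESeq2 1.42.0, limma-voom with limma 3.58.1), counts divided by 4, a replicate block, removal of GC and length trends, other length measures and leaving out each library. Results of some genes are not reported here, though they enter the fits and counts.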

Additional observations from a re-analysis of the deposited data

How the results depend on the processing

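With GC and length trends removed, 6 HOX members were higher and 5 lower in ASO, against 12 and 3 before, the median log2 fold change of the members became -0.079, against 0.19 before, and HOXC10 was lower (-0.30). With the same step 51 genes of the regulator, positional and flanking lists were lower, against 31 before, and 4713 of all genes, against 2692 before. It moved the median log2 fold change of all genes by -0.12. The members' median was 0.38 with DESeq2 and 0.36 without a filter on low counts. The cause of these shifts was not tested. Leaving out 1 library gave 6 to 10 higher and 1 to 4 lower HOX members, medians of 0.11 to 0.26, 20 to 36 lower genes in the lists, and 1755 to 3199 lower and 3128 to 3927 higher genes in all. HOXB2, HOXB9 and HOXC12, which passed the filter only through ASO, are in the higher counts with GC and length trends removed and with each library left out. The all-gene count lower was 1764 without ASO 3 and 1755 without NC 1. Paralogue groups 9 to 13 held 59.8% of the NC level with no division by length, against 58.0%, and 57.5% to 58.7% without 1 NC library. All other planned settings kept the counts of higher and lower HOX members within 1.5 times, with 11 or 12 higher and 3 or 4 lower.

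ASO and NC libraries share replicate numbers, but the labels do not say that a number marks a shared culture. Over 12092 genes, deviations from the group means correlated at 0.103, 0.353 and 0.089 between libraries of the same number, and ASO 1 correlated best with NC 3 (0.209), so the numbers were not taken as pairs. With a replicate block, 11 HOX members were higher and 4 lower, and 3924 genes were higher and 3494 lower in all. HOXB4 was then not called (adjusted p = 0.0917) and HOXC6 was called lower (0.0319).

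Depth limits what can be said of HOX members beyond the 25 that reached 12 counts in every NC library. Exon sharing, an unstated strand setting and 3 libraries a group limit the rest.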
